A study of Mus musculus with 10 samples.

Results

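Murine leukaemia cells carrying the Mll-AF9 fusion were profiled in 5 numbered pairs of arrays, and the levels of myeloid maturation and growth genes were compared between pairs 1 and 2 and pairs 3 to 5, whichever virus the cells had received. Each pair holds 1 sample with the empty lentiviral vector and 1 with a lentivirus expressing a short hairpin RNA (shRNA) against Meis1, a homeobox gene that cooperates with Hoxa9 in leukaemia. The comparison uses all 10 arrays of the series, 4 in pairs 1 and 2 and 6 in pairs 3 to 5. Both sets were chosen by measured values: earlier results from these arrays had shown the levels in samples numbered 1 and 2 standing apart from the rest. The difference in level between them is therefore a description and carries no test. All samples came from 1 line of leukaemia cells, number 4166, and the line limits what they can stand for. Their medium was IMDM supplemented with 15% serum and with interleukin 3 at 2 ng/ml. They were selected with puromycin and were collected 48 h after transduction. The labels pair the samples by number. They say neither whether samples came from separate cultures nor what set pairs 1 and 2 apart from the others, so culture, day and handling cannot be told apart, and every SE here covers the spread among these samples alone, part of which may be technical.

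The Mll-AF9 fusion holds myeloid progenitors in a state that renews itself and keeps the HoxA genes active. Normal granulocytic cells first make the azurophil, or primary, granule proteins at the promyelocyte stage, among them myeloperoxidase and the serine proteases elastase, cathepsin G and proteinase 3. Later they make the proteins of specific granules and of the cytosol of mature neutrophils, such as lactoferrin and the S100 proteins, while monocytic cells take up surface receptors such as Cd14 and the F4/80 antigen. The transcription factors C/EBPα, PU.1 and Gfi1 favour the granulocytic programme and Irf8 favours monocytes and dendritic cells.

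Values are fluorescence intensities on a linear scale, and all differences are on the log2 scale, pairs 1 and 2 minus pairs 3 to 5, so that a negative difference means a higher level in pairs 3 to 5. The control and shRNA samples weigh equally in each difference, and its SE is taken over the 5 pair means. Each gene is represented by its brightest probe set. A gene is said to separate the sets where all 4 arrays of pairs 1 and 2 lie on one side of all 6 arrays of pairs 3 to 5. It is said to separate them by at least 2-fold where the difference also reaches 1. Of 18193 genes, 35 were higher by that rule in pairs 1 and 2 (0.192%) and 49 in pairs 3 to 5 (0.269%). With no minimum size, 419 genes separated the sets with higher levels in pairs 1 and 2 (2.30%) and 487 with higher levels in pairs 3 to 5 (2.68%). For the 84 genes past the 2-fold rule, the rule itself fixes the same sign in the control arrays as in the shRNA arrays. Of these genes, 58 reached a difference of 1 in each virus group taken alone. The median difference over all genes was 0.02.

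Pair 5 stood apart from pairs 3 and 4. Over the 6721 genes with a mean log2 level of at least 5, the difference between the sets took 28.6% of the variation between arrays. The difference between control and shRNA took 28.9%. The sets were chosen by these same levels, which favours a large share, so the first value cannot be weighed against the second. Pair 5 against pairs 3 and 4 took a further 16.7%, compared with 4.72% between pairs 3 and 4 and 3.93% between pairs 1 and 2. Each of these shares has 1 degree of freedom. Of the 84 genes past the 2-fold rule, 61 had a pair 5 mean that lay beyond pairs 3 and 4 on the side away from pairs 1 and 2, and 10 had one that lay nearer to pairs 1 and 2. The rule itself favours the first case, since it was applied with pair 5 included. Without pair 5 the counts were 25 and 44 genes in place of 35 and 49, with 24 and 36 of the original genes among them. The 3 prime to 5 prime signal ratio of the actin and Gapdh controls, which reflects how intact the RNA was, overlapped between the sets, at a log2 ratio of 0.26 to 0.37 in pairs 1 and 2 and 0.20 to 0.39 in pairs 3 to 5. Median intensity also overlapped, at 6.42 to 6.71 and 6.25 to 6.70.

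**Figure D1:**
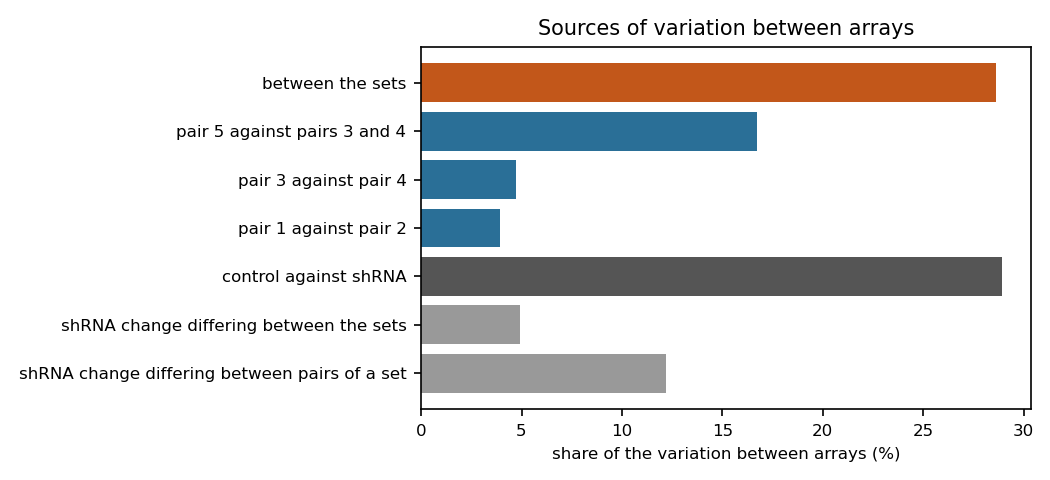
Share of the variation in log2 level between arrays (percent, horizontal axis) over 6721 genes with a mean log2 level of at least 5, split by source. The difference between the sets took 28.6%, a share favoured by the choice of the sets from these same levels. Control against shRNA took 28.9%, and pair 5 against pairs 3 and 4 took 16.7%.

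Of the 49 genes with at least 2-fold higher levels in pairs 3 to 5, 7 belong to the primary granule, late granule or monocyte lists. Of the 35 with higher levels in pairs 1 and 2, 0 do. Those lists hold 13, 27 and 50 of the 18193 measured genes, so 0 of 35 is near their share of all genes. They were written with earlier results of these data known. The neutrophil serine protease Elane, the siderophore-binding protein Lcn2, the secreted adhesion protein Thbs1 and the coagulation factor F13a1 separated the sets by 2.68-fold to 8.83-fold. Genes with higher levels in pairs 1 and 2 included the angiopoietin Angpt1, the fetal serum protein Afp, the glycosylated surface antigen Cd24a and the transcriptional repressor Nfil3.

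Elane gave intensities of 1421 and 1285 in controls 1 and 2 and of 1024 and 922 in the matching shRNA samples. In pairs 3 to 5 it gave 3410, 3671 and 3347 in the controls and 3000, 2697 and 2465 with the shRNA. All 6 arrays of pairs 3 to 5 were thus above all 4 of pairs 1 and 2, and the difference was -1.42 (SE 0.08 over 5 pair means). It was -1.36 in the controls alone and -1.48 in the shRNA arrays alone. Of the 13 measured genes listed for primary granules and their regulators, 2 separated the sets by at least 2-fold with higher levels in pairs 3 to 5 and 0 with higher levels in pairs 1 and 2. With no minimum size the counts were 7 and 0, and 11 of the 13 had a difference below 0, with a median of -0.32. Among the 7 is Calr, at -0.21 (SE 0.06), a chaperone gene that is counted again below in the endoplasmic reticulum list. Without pair 5, 7 separated the sets, 1 of them by 2-fold, and the median was -0.21. Over all genes 4.09% then separated the sets in that direction, beside 2.68% with all pairs. Ctsg, the gene for cathepsin G, had log2 levels of 12.20 to 12.41 in pairs 1 and 2 and 12.65 to 13.65 in pairs 3 to 5, a difference of -0.75 (SE 0.30). Prtn3, encoding proteinase 3, had levels of 12.17 to 12.26 and 12.37 to 12.89, a difference of -0.37 (SE 0.14). Mpo, encoding myeloperoxidase, differed by -0.32 (SE 0.14), from 12.99 to 13.22 in pairs 1 and 2 against 13.24 to 13.74. In all 3 the highest levels were those of pair 5.

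The other members of the list varied in direction. The haptoglobin gene Hp gave 374 to 433 in pairs 1 and 2 and 487 to 580 in pairs 3 and 4, against 1219 and 1114 in pair 5, so its difference of -0.80 (SE 0.50) was -0.42 without that pair. Gfi1, the repressor that granulocytic cells need, gave 184, 191, 171 and 165 in pairs 1 and 2 against 279 to 352 in pairs 3 and 4 and 642 and 608 in pair 5. Its difference was -1.16 (SE 0.42), or -0.84 without pair 5. The microsomal glutathione transferase gene Mgst1 differed by -1.97 (SE 0.62) but did not separate the sets, since the shRNA samples of pairs 1 and 2, at 249 and 244, lay among the controls of pairs 3 and 4, at 262 and 212. Cst7, a cystatin, went the other way at 1.09 (SE 0.56) with overlap, or 0.66 without pair 5. Srgn, the proteoglycan that packs granule proteins, was at -0.10 (SE 0.07) and Plac8 at 0.09 (SE 0.03).

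The promoters of 4 granule genes that separated the sets are shown because these genes are classical targets of PU.1, C/EBP and Runx factors. Each sequence is the 250 bases before the start of the RefSeq gene in GRCm38.p6, read 5′ to 3′ on the strand of the gene. Capitals mark matches to GAGGAA (a PU.1-type core) or TGTGGT (a Runx-type core) on either strand. No match to TTGCNNAA, a C/EBP-type motif, fell in these 4 windows. Elane lies at chr10:79886062-79886311 on the plus strand and Prtn3 beside it at chr10:79879417-79879666 on the same strand, Ctsg at chr14:56102575-56102824 on the minus strand, and Mpo at chr11:87793534-87793783 on the plus strand.
Elane: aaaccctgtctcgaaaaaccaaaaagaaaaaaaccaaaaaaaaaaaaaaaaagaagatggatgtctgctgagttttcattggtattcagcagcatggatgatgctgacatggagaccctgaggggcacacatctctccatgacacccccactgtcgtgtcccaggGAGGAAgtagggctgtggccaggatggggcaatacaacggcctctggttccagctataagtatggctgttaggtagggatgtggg
Prtn3: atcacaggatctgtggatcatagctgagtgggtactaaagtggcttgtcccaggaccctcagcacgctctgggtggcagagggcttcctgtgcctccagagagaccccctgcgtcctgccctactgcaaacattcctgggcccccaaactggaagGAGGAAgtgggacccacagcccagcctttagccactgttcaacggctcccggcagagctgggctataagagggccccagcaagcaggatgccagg
Ctsg: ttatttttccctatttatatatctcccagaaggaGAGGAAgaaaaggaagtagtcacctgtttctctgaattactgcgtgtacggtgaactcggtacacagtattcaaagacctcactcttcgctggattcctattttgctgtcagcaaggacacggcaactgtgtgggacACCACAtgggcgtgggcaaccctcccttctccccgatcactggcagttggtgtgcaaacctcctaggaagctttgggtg
Mpo: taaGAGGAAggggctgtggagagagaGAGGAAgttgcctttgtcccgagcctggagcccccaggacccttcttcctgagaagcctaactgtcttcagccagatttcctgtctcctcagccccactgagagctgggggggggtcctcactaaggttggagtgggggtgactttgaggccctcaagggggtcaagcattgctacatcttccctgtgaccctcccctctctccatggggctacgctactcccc

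The PU.1-type match begins 85 bases before the start of Elane and 95 before that of Prtn3, its neighbour. In Ctsg it begins 216 bases before the start, with a Runx-type match on the opposite strand at 79 bases, and Mpo has PU.1-type matches at 247 and 224 bases. Over windows from 250 bases before to 50 after the start, GAGGAA occurred in 6 of 11 genes of the primary granule list that have a promoter in the table (54.5%), in 13 of 31 of the genes with at least 2-fold higher levels in pairs 3 to 5 (41.9%) and in 7 of 24 with higher levels in pairs 1 and 2 (29.2%). It occurred in 28.3% of all 27025 promoters. GAGGAA was also found in 15 of 24 promoters of the late granule list (62.5%), 19 of 38 of the monocyte list and 7 of 18 of the endoplasmic reticulum list (38.9%). It was thus not particular to the primary granule list. TTGCNNAA was found in 4 of the 11 granule promoters (36.4%) and 10.8% of all, and TGTGGT in 3 (27.3%) and 16.9%. Among genes with at least 2-fold higher levels in pairs 3 to 5, TTGCNNAA occurred in 9.68% and TGTGGT in 12.9%. Among those higher in pairs 1 and 2 the shares were 12.5% and 8.33%. These are matches of letters, and binding was not measured.

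**Figure D2:**
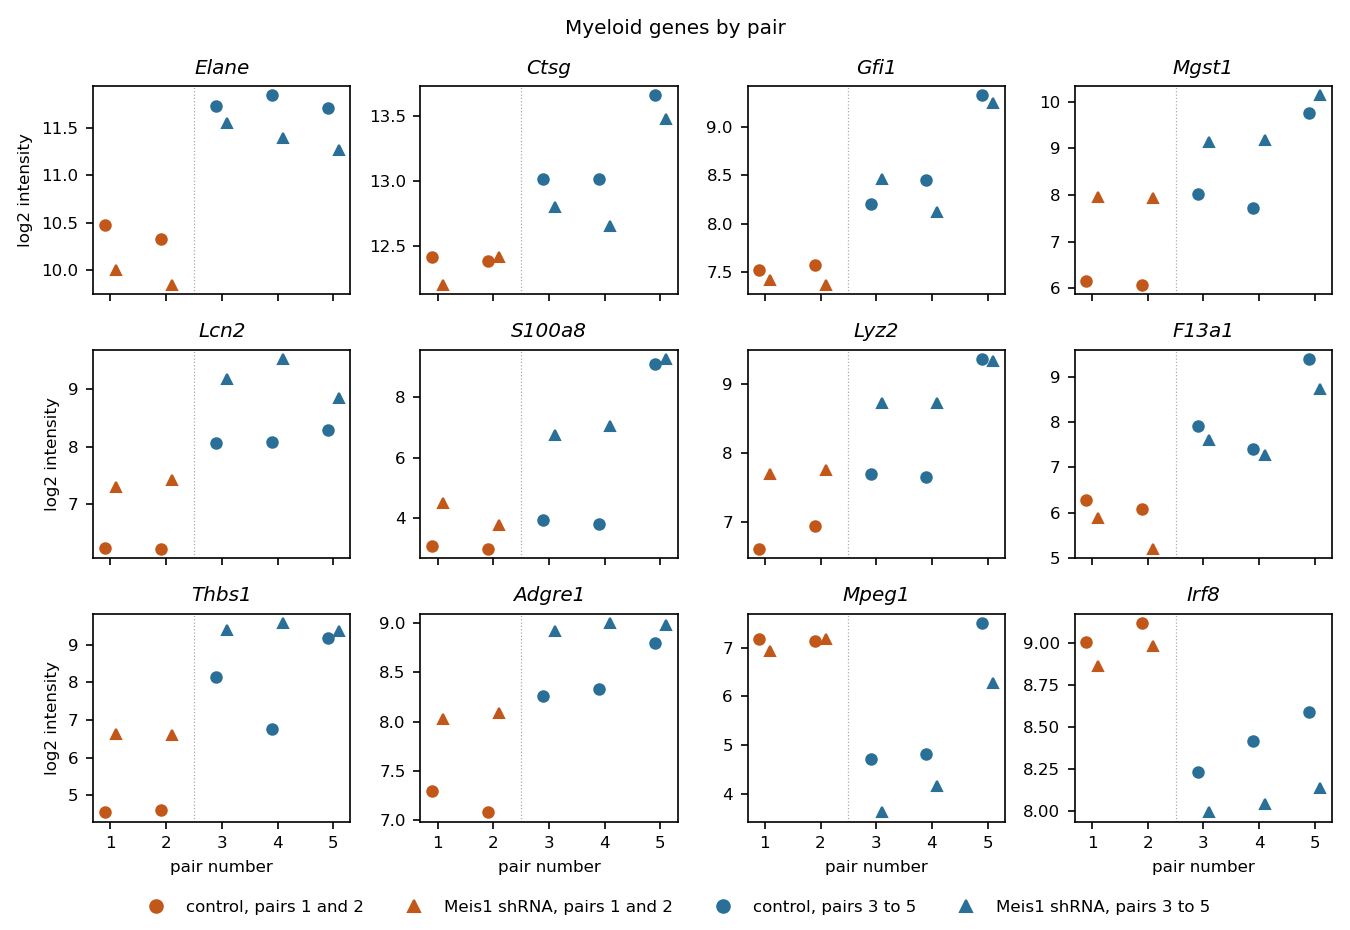
Log2 intensity (vertical axis) of 12 myeloid genes against pair number (horizontal axis), with circles for control and triangles for Meis1 shRNA arrays, and colours for the sets. Elane, Lcn2, Thbs1 and Adgre1 were higher in every array of pairs 3 to 5 than in any of pairs 1 and 2, S100a8 was highest in both arrays of pair 5, Mpeg1 was high in pairs 1, 2 and 5, and Irf8 was higher in pairs 1 and 2.

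Few genes of late neutrophil maturation had a readable level. Of 27 measured, 1 separated the sets by at least 2-fold and 4 with no minimum size, all of these with higher levels in pairs 3 to 5, and the list median was -0.07. Over all genes 0.269% and 2.68% did so in that direction. The 7 of the 27 with a mean log2 level of at least 5 had a median of -0.58, beside -0.34 for the 12 such members of the primary granule list and 0.03 for all such genes. A gene can pass that limit through 1 set alone. S100a8 did so, with a mean of 3.58 in pairs 1 and 2 and 6.65 in pairs 3 to 5. The limit can thus pull these medians away from 0, and they do not add to the median of the whole list. Lcn2, which encodes the iron-siderophore carrier lipocalin 2, gave 75.6 and 74.9 in controls 1 and 2 and 158 and 172 in the matching shRNA samples. It gave 268, 271 and 314 in controls 3 to 5 and 578, 736 and 464 in their shRNA samples. Both virus groups were shifted by about the same amount, and the difference was -1.87 (SE 0.09). Pglyrp1, a peptidoglycan recognition protein of neutrophil granules, had log2 levels of at most 10.10 in pairs 1 and 2 and of 10.43 to 10.91 in pairs 3 to 5, a difference of -0.58 (SE 0.11). Csf3r, the receptor for granulocyte colony-stimulating factor, gave 30.3 to 53.5 and 58.0 to 89.7, a difference of -0.86 (SE 0.26) that was -0.57 without pair 1. The C-type lectin gene Clec4d, of the same list, went the other way at 0.75 (SE 0.31), with overlap.

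S100a8, a calcium-binding protein abundant in mature neutrophils, showed how far pair 5 departed. It gave 8.41 and 7.96 in controls 1 and 2, 15.2 and 13.9 in controls 3 and 4, and 547 in control 5. With the shRNA it gave 22.6 and 13.6 in pairs 1 and 2, 109 and 132 in pairs 3 and 4, and 613 in pair 5. The sets overlapped, and the difference of -3.07 (SE 1.64) was -1.80 without pair 5. Its partner S100a9 lay between log2 levels of 2.22 and 3.01 in pairs 1 and 2 and reached 4.74 and 4.34 in pair 5. The specific granule genes Ltf, Camp and Ngp stayed between 1.76 and 2.68 on every array, near the unspiked Trpn controls at 1.83 to 2.18. These 3 specific granule genes were thus near background in both sets.

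Several monocyte and macrophage genes were higher in pairs 3 to 5. Of 50 measured, 4 separated the sets by at least 2-fold and 6 with no minimum size, each with higher levels in pairs 3 to 5, and 0 with higher levels in pairs 1 and 2. The median of the list was -0.08, beside 0.02 for all genes, and over the 18 members with a mean log2 level of at least 5 it was -0.25, beside 0.03. Tgm2 was among the 18 although its mean was 3.88 in pairs 1 and 2, against 7.04 in pairs 3 to 5. The limit on the mean can therefore pull the second median away from 0. Without pair 5, 7 separated the sets with higher levels in pairs 3 to 5 and 1, Mpeg1, with higher levels in pairs 1 and 2. Fewer arrays separate more easily, and over all genes these shares rose from 2.68% and 2.30% to 4.09% and 3.7%. Thbs1, encoding thrombospondin 1, gave 23.4 and 24.3 in controls 1 and 2 and 281, 109 and 576 in controls 3 to 5. With the shRNA it gave 98.2 and 97 in pairs 1 and 2 and 677, 762 and 657 in pairs 3 to 5. The lowest array of pairs 3 to 5, control 4, was above the highest of pairs 1 and 2, and the difference was -3.14 (SE 0.41).

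F13a1, the A subunit of coagulation factor XIII and a marker of monocytic cells, gave 77.8, 67.7, 58.9 and 36.9 in pairs 1 and 2. It gave 154 to 242 in pairs 3 and 4 and 672 and 428 in pair 5, a difference of -2.19 (SE 0.69). Adgre1, the F4/80 antigen, had log2 levels of 7.30 and 7.08 in controls 1 and 2 against 8.26, 8.33 and 8.80 in controls 3 to 5. Its shRNA samples had 8.03 and 8.09 against at least 8.92, and the difference was -1.09 (SE 0.12). Cd14, the lipopolysaccharide co-receptor, rested on dim signal, from 2.84 to 3.58 in pairs 1 and 2 and from 4.39 to 5.54 in pairs 3 to 5, a difference of -1.83 (SE 0.39). Itgam, the CD11b integrin chain, differed by -0.91 (SE 0.13) and Fcgr2b, the inhibitory Fc receptor, by -0.89 (SE 0.31), both without overlap.

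The lysozyme genes did not separate the sets. Lyz2 had log2 levels of 6.62 and 6.94 in controls 1 and 2, 7.69 and 7.65 in controls 3 and 4 and 9.35 in control 5, but the shRNA samples of pairs 1 and 2, at 7.69 and 7.75, lay level with controls 3 and 4. The difference was -1.32 (SE 0.50) for Lyz2 and -1.10 (SE 0.41) for Lyz1, a near-identical copy whose probes may share signal with it. Tgm2, a transglutaminase of macrophages, gave 6.95 and 7.85 in controls 1 and 2 and 83.0, 22.2 and 154 in controls 3 to 5. With the shRNA it gave 20.1 and 42.9 against 299, 344 and 178, so control 4 overlapped with pair 2, and the difference was -3.16 (SE 0.45).

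Some monocytic genes ran the other way. Mpeg1, which encodes the pore-forming protein perforin-2, gave 122 to 146 in pairs 1 and 2 and 12.2 to 28.2 in pairs 3 and 4. Pair 5 had 181 and 77.8, so the difference of 1.93 (SE 1.11) set pairs 3 and 4 apart rather than the 3 later pairs together. The galectin Lgals3 differed by 0.37 (SE 0.17), with overlap. Csf1r, the receptor that defines monocytes, was dim on every array, at log2 levels of 3.10 to 3.92, and Spi1, the PU.1 gene, differed by -0.12 (SE 0.04).

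Among 29 measured myeloid transcription factors, 1 separated the sets by at least 2-fold in each direction, Nfil3 with higher levels in pairs 1 and 2 and Gfi1 with higher levels in pairs 3 to 5. With no minimum size the counts were 3 and 2, beside 2.30% and 2.68% of all genes. Nfil3, a basic leucine zipper repressor, gave 517 and 547 in controls 1 and 2 and 315 and 318 in their shRNA samples. In pairs 3 to 5 the controls gave 212, 261 and 207 and the shRNA samples 94.0, 155 and 138. Every array of pairs 1 and 2 was above every array of pairs 3 to 5, and the difference was 1.28 (SE 0.19). Irf8, which directs progenitors to monocytes and dendritic cells, gave 515, 555, 465 and 505 in pairs 1 and 2 and 254 to 384 in pairs 3 to 5, a difference of 0.76 (SE 0.10). Both of its probe sets separated the sets, at 0.76 and 1.02.

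Cebpa, which encodes C/EBPα, had log2 levels of 7.88 to 8.26 in pairs 1 and 2 and 8.41 to 8.97 in pairs 3 to 5, a difference of -0.60 (SE 0.03). The related Cebpb and Cebpd differed by -0.22 (SE 0.11) and -0.05 (SE 0.20), with overlap. Irf5 differed by 0.39 (SE 0.15) at log2 levels of 3.58 to 4.59, without overlap. Id2, an inhibitor of helix-loop-helix factors, gave 396 to 706 in pairs 1 and 2, 235 to 466 in pairs 3 and 4 and 198 and 33.9 in pair 5. Its difference of 1.35 (SE 0.88) was 0.68 without pair 5.

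Genes of stem and progenitor cells gave no common direction. Of 32 measured, 1 separated the sets by at least 2-fold, Angpt1, and with no minimum size 1 did so in each direction. The list median was -0.01, with 16 differences above 0 and 16 below. Angpt1, a ligand of the Tie2 receptor made by blood progenitors, gave 230, 219, 174 and 176 in pairs 1 and 2, 42.5 to 113 in pairs 3 and 4 and 17.7 and 17.1 in pair 5, a difference of 2.13 (SE 0.90). Kit, the receptor for stem cell factor, gave 274 and 240 in controls 1 and 2 against 343, 437 and 556 in controls 3 to 5. With the shRNA it gave 168 and 128 against 200, 259 and 333, so each virus group separated while the 2 together overlapped, and the difference was -0.79 (SE 0.29). Meis1 itself gave 396 and 413 in controls 1 and 2 and 297, 333 and 290 in controls 3 to 5. With the shRNA it gave 193 and 221 against 127, 142 and 140, lower in each pair than in its control. The difference between the sets was 0.50 (SE 0.08).

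The HoxA genes diverged. Hoxa11 gave 25.7, 27.5, 22.5 and 20.2 in pairs 1 and 2, and 156, 158 and 231 in controls 3 to 5 with 174, 147 and 265 in their shRNA samples. The lowest level in pairs 3 to 5 was thus far above the highest in pairs 1 and 2, in both virus groups, and the difference was -2.95 (SE 0.28), a 7.73-fold higher level. Hoxa10, its neighbour in the cluster, gave 151 to 251 and 276 to 381, a difference of -0.68 (SE 0.17). Hoxa9, the main HoxA gene of Mll leukaemia, differed by 0.00 (SE 0.07), at log2 levels of 10.20 to 10.53 on all arrays, and the progenitor factor Myb by -0.04 (SE 0.03). Hoxa7 differed by 0.57 (SE 0.28) with overlap.

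**Figure D3:**
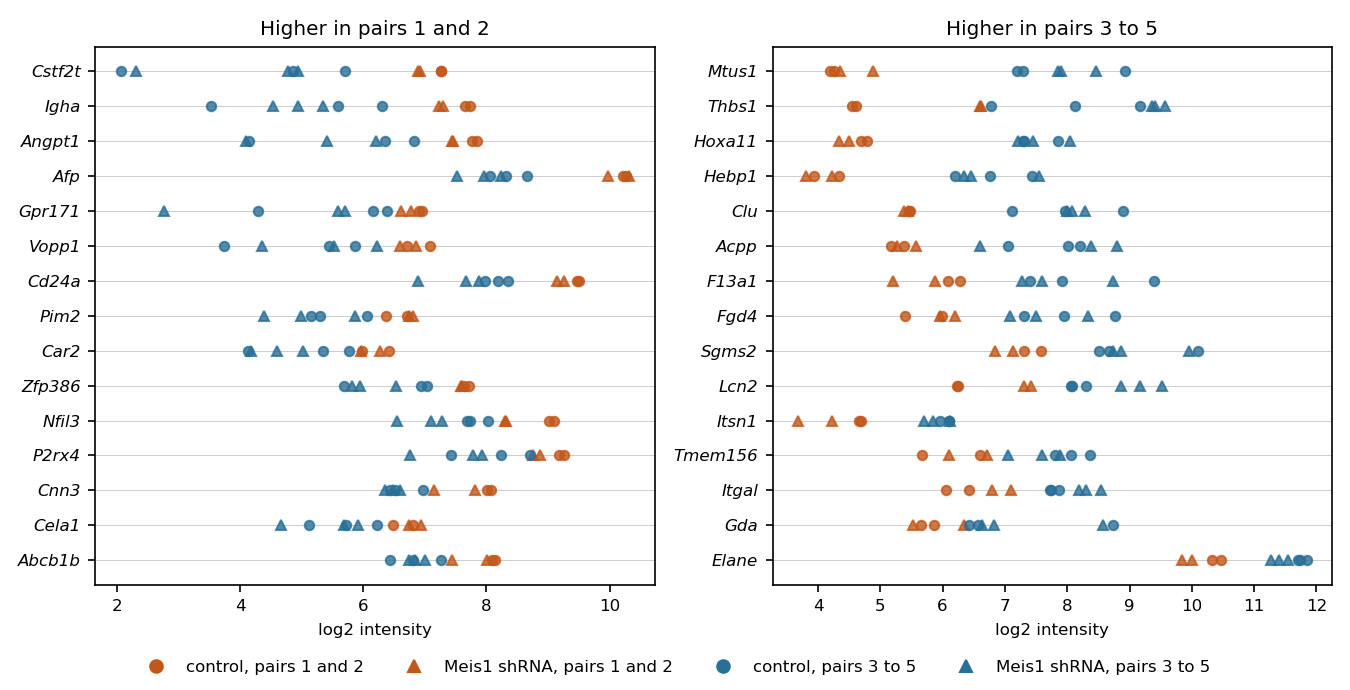
Log2 intensity (horizontal axis) on all 10 arrays of the 15 genes with the largest differences in each direction among those that separated the sets by at least 2-fold with a mean log2 level of at least 5; circles are control and triangles Meis1 shRNA arrays. The SE over pair means was small for Elane (0.08) and Lcn2 (0.09), whereas Cstf2t, Angpt1 and Gpr171 spread widely in pairs 3 to 5.

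The remaining genes with the largest differences were not from the granule or monocyte lists. Afp, alpha-fetoprotein, gave 1232, 1189, 1280 and 1011 in pairs 1 and 2, against 319, 406 and 268 in controls 3 to 5 and 248, 302 and 184 in their shRNA samples. All 4 arrays of pairs 1 and 2 were above the others, the difference was 2.07 (SE 0.26), and 4 of its 5 probe sets separated the sets. Cd24a gave 564 to 723 in pairs 1 and 2 and 118 to 325 in pairs 3 to 5, a difference of 1.52 (SE 0.26). Pim2, a survival kinase induced by STAT5, gave 83.1 to 112 and 21 to 66.9, a difference of 1.36 (SE 0.46). The drug efflux pump gene Abcb1b gave 174 to 282 and 86.1 to 153, a difference of 1.07 (SE 0.21).

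Of the other named genes with higher levels in pairs 1 and 2, several leaned on pair 5. Cstf2t, a polyadenylation factor copy, gave 118 to 154 in pairs 1 and 2, 27.4 to 52.2 in pairs 3 and 4 and 4.18 and 4.96 in pair 5, so its difference of 2.97 (SE 1.25) was 2.01 without that pair. The pair 5 values, log2 levels of 2.06 and 2.31, were near the unspiked Trpn controls of those arrays, at 1.94 and 2.18, so the difference is set in part against background. Igha, the immunoglobulin A constant region, was at 2.43 (SE 0.68), with 1 of its 3 probe sets separating the sets. Gpr171 was at 1.66 (SE 1.05) with pair 5 and 0.85 without it. Vopp1 was at 1.62 (SE 0.78) and 1.04, and Thy1, a surface glycoprotein, at 1.07 (SE 0.58) and 0.62. Car2 (carbonic anhydrase 2), Zfp386, P2rx4 (an ATP-gated channel), Cnn3 and Cela1 lay between 1.19 and 1.32.

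Of those with higher levels in pairs 3 to 5, Mtus1, a microtubule-associated tumour suppressor, had the largest difference. It gave 18.3, 19.1, 20.3 and 29.6 in pairs 1 and 2 and 146 to 486 in pairs 3 to 5, a difference of -3.51 (SE 0.50), and 3 of its 3 probe sets separated the sets. Hebp1, a haem-binding protein, gave 14.1 to 20.1 and 73.0 to 187, a difference of -2.72 (SE 0.49). Clu, the secreted chaperone clusterin, gave 41.6 to 44.7 and 138 to 474, a difference of -2.61 (SE 0.37). Itgal, the CD11a integrin chain, gave 66.7 to 137 and 211 to 375, a difference of -1.47 (SE 0.14). Acpp was at -2.50 (SE 0.66), and unlike most of this group its lowest levels within pairs 3 to 5, 133 and 97.3, were those of pair 5. Fgd4, Sgms2, Itsn1 and Tmem156 lay between -1.94 and -1.52, and the guanine deaminase gene Gda at -1.45 (SE 0.90), or -0.77 without pair 5.

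Growth genes differed little between the sets. Of 48 measured genes of G1/S and DNA replication, 0 separated the sets, although 39 had a difference above 0 and the list median was 0.10. Over all genes 2.30% and 2.68% separated the sets in each direction, and 9873 of 18193 had a difference above 0. In lists of this size, counts of 0 or 1 are near those shares. The replication clamp gene Pcna differed by 0.10 (SE 0.02) and Mcm2, a helicase subunit, by 0.20 (SE 0.03). The largest differences were those of the replication genes Gins1, at 0.61 (SE 0.06), and Gins3, at -0.55 (SE 0.13), which share a complex and went opposite ways. Of 35 G2/M genes 0 separated the sets, with a median of -0.04. Mki67, the proliferation antigen, differed by -0.24 (SE 0.10). Among 29 cell cycle inhibitors and p53 targets, 1 separated the sets, the pocket protein gene Rbl2, which gave 287 to 401 in pairs 1 and 2 and 464 to 568 in pairs 3 to 5, a difference of -0.52 (SE 0.04). Cdkn1a, encoding p21, differed by 0.12 (SE 0.19).

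Of 45 genes of Myc function and ribosome biogenesis, 6 separated the sets with higher levels in pairs 1 and 2 and 2 with higher levels in pairs 3 to 5, 0 of them by 2-fold, and the median was 0.07. Over all genes 2.30% and 2.68% separated the sets in these directions. The 6 were Wdr12, Pno1, Ldha, Nop56, Pes1 and Nhp2, at 0.20 to 0.30. Myc itself was among the other 2, at -0.20 (SE 0.12), with log2 levels of 10.75 to 10.82 in pairs 1 and 2 and 10.83 to 11.21 in pairs 3 to 5. Nip7, a ribosome assembly factor, gave 1026 to 1260 and 1305 to 1565, a difference of -0.38 (SE 0.06). Among 38 cytokine receptors and their signalling genes, Pim2 was higher in pairs 1 and 2, and Csf3r, Il17ra and Stat3 were higher in pairs 3 to 5, the last at -0.41. Il3ra, the receptor chain for the interleukin 3 in the medium, differed by 0.03 (SE 0.13), and its partner Csf2rb by -0.08 (SE 0.32).

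Genes of protein folding in the endoplasmic reticulum were higher in pairs 3 to 5 by small amounts. Of 21 measured, 10 separated the sets with higher levels in pairs 3 to 5, 0 the other way and 0 by 2-fold, and 20 of 21 differences were below 0, with a median of -0.35. Without pair 5, 10 of 21 separated the sets and the median was -0.32. Over all genes 4.09% then did so in that direction, beside 2.68% with all pairs. Xbp1, the transcription factor of the unfolded protein response, gave 3138, 3175, 2944 and 2723 in pairs 1 and 2. It gave 4251, 4298 and 4224 in controls 3 to 5 and 4534, 4486 and 4391 in their shRNA samples, and the difference was -0.55 (SE 0.02). All 4 of its probe sets separated the sets, at -0.61 to -0.42. Herpud1, a component of the degradation machinery of this compartment, gave 390 to 527 and 664 to 823, a difference of -0.68 (SE 0.11). The co-chaperone gene Dnajc3 gave 240 to 300 and 332 to 437, a difference of -0.56 (SE 0.10). Hspa5, the chaperone BiP, had log2 levels of 12.09 to 12.37 and 12.48 to 12.73, a difference of -0.35 (SE 0.08). The other 6 were Dnajb9, Pdia6, Hsp90b1, Ern1, Calr and Canx, at -0.40 to -0.16, and Ern1, at -0.35, was at -0.18 without pair 5. Edem1, which extracts misfolded glycoproteins, was the exception in sign at 0.16 (SE 0.06).

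The promoters of 3 of these genes are shown because they hold the endoplasmic reticulum stress element, which ATF6 and NF-Y are known to bind, written as CCAAT, then 9 unspecified bases, then CCACG. Again the 250 bases before the RefSeq start in GRCm38.p6 are given on the strand of the gene, and capitals mark the whole element on either strand. Hspa5 lies at chr2:34771840-34772089 on the plus strand, Hsp90b1 at chr10:86705445-86705694 on the minus strand and Pdia6 at chr12:17266339-17266588 on the plus strand.
Hspa5: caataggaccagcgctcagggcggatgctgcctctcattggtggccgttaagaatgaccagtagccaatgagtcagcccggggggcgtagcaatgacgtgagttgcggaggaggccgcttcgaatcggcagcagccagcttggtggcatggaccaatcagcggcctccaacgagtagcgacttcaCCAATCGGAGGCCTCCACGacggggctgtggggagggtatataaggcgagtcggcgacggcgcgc
Hsp90b1: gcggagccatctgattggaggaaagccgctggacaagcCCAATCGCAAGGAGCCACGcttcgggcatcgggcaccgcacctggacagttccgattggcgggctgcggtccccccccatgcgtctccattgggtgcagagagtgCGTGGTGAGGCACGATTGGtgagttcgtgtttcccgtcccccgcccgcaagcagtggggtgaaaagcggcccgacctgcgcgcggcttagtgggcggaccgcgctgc
Pdia6: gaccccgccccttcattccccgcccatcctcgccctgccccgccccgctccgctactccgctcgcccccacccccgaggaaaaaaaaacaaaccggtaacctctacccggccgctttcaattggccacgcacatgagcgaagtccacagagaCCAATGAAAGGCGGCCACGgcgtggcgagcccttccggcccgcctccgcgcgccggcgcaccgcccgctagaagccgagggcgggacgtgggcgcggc

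The element begins 65 bases before the start of Hspa5 and 98 before that of Pdia6, and Hsp90b1 has a pair of them, at 212 bases and, on the opposite strand, at 107. Over the windows from 250 bases before to 50 after the start it occurred in 7 of 18 promoters of the list (38.9%), those of Hspa5, Hsp90b1, Dnajc3, Pdia6, Calr, Canx and Creld2, and in 35 of all 27025 (0.13%). The share of 38.9% follows from which genes were listed, whatever levels the arrays gave, and is no result about the sets. The 7 genes with the element differed by -0.56 to -0.16, with a median of -0.35, and 6 of them separated the sets. The 11 without it, among them Xbp1 and Herpud1, differed by -0.68 to 0.16, with a median of -0.31, and 4 separated the sets. Herpud1, with the largest difference of the list, was one of those without a match.

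**Figure D4:**
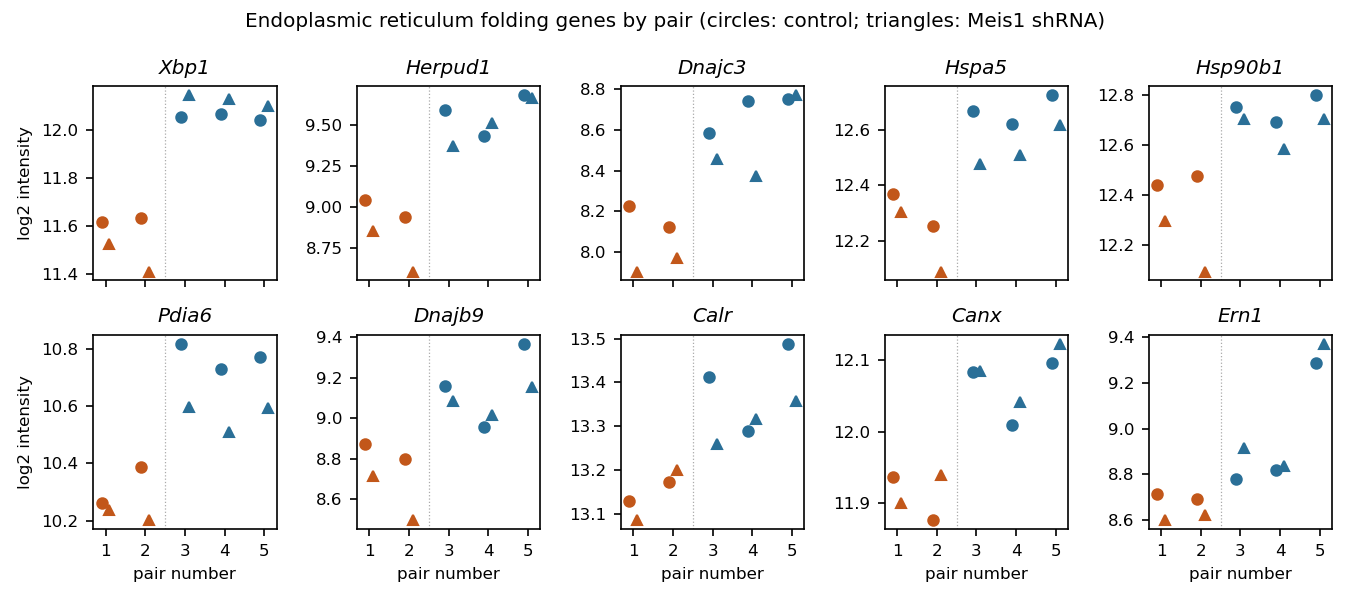
Log2 intensity (vertical axis) of the 10 endoplasmic reticulum folding genes that separated the sets, against pair number (horizontal axis), with circles for control and triangles for Meis1 shRNA arrays. Every array of pairs 3 to 5 lies above every array of pairs 1 and 2, and the gap is widest relative to the spread for Xbp1, at a difference of -0.55 (SE 0.02).

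Other lists held a few separated genes each. Of 37 genes of amino acid supply and the ATF4 response, 4 separated the sets with higher levels in pairs 1 and 2 and 0 the other way, with a median of 0.08. Over all genes the shares were 2.30% and 2.68%. The pseudokinase gene Trib3 gave 48.5 to 63.1 and 21.1 to 43.4, a difference of 0.84 (SE 0.37), and the transfer RNA synthetase genes Aars and Mars1 and the glycine transporter gene Slc6a9 were at 0.43, 0.18 and 0.40. Atf4 itself was at -0.09 (SE 0.07). Of 29 sterol genes, 4 separated the sets, all with higher levels in pairs 3 to 5, with a median of -0.09. Msmo1, a sterol demethylase, gave 727 to 777 and 1011 to 1283, a difference of -0.61 (SE 0.09), and Hmgcs1, which makes the precursor of mevalonate, was at -0.37 (SE 0.06). Without pair 5, 7 of the 29 separated the sets and the median was -0.16. Over all genes 4.09% then did so in that direction, beside 2.68% with all pairs.

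Of 32 glycolytic and hypoxia genes, 3 were higher in pairs 1 and 2 and 2 in pairs 3 to 5 without overlap. Over all genes 2.30% and 2.68% separated the sets in these directions. The list median of 0.06 became -0.04 without pair 5. Egln3, an oxygen-sensing hydroxylase, gave 1103 to 1220 in pairs 1 and 2, 752 to 871 in pairs 3 and 4 and 550 and 518 in pair 5, a difference of 0.70 (SE 0.26). The mitophagy gene Bnip3 was at 0.64 (SE 0.49), or 0.26 without pair 5, and the hexokinase gene Hk1 at -0.52 (SE 0.07). Of 36 lysosomal genes, 2 were higher in pairs 1 and 2 and 5 in pairs 3 to 5, with a median of -0.03. The shares over all genes were again 2.30% and 2.68%. The proton pump subunit genes Atp6v1b2 and Atp6v0d1 were at -0.68 (SE 0.11) and -0.41 (SE 0.03), the ceramidase gene Asah1 at -0.63 (SE 0.11) and Ctsc, the protease that activates granule serine proteases, at 0.49 (SE 0.13).

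Of 31 respiratory chain genes 1 separated the sets, Cyc1 at 0.17 (SE 0.04), with a median of 0.04. Among 26 genes of iron, haem and oxidative stress, the quinone reductase gene Nqo1 was higher in pairs 1 and 2 at 1.33 (SE 0.73), on log2 levels of 5.23 to 5.71 against 2.80 to 5.20, or at 0.765 without pair 5. Of 41 inflammatory genes 2 separated the sets, the chemokine receptor gene Ccr1 at -0.72 (SE 0.07) and the dim Cxcl10. Both were higher in pairs 3 to 5, as were 2.68% of all genes. Of 34 interferon response genes, Bst2, a tetherin, gave 107 to 145 and 225 to 314, a difference of -1.06 (SE 0.16), and the list median was 0.00. Of 15 antigen presentation genes, Cd74, the invariant chain, separated the sets at 1.21 (SE 0.11) on log2 levels of 3.80 to 5.25 against 2.91 to 3.78.

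**Figure D5:**
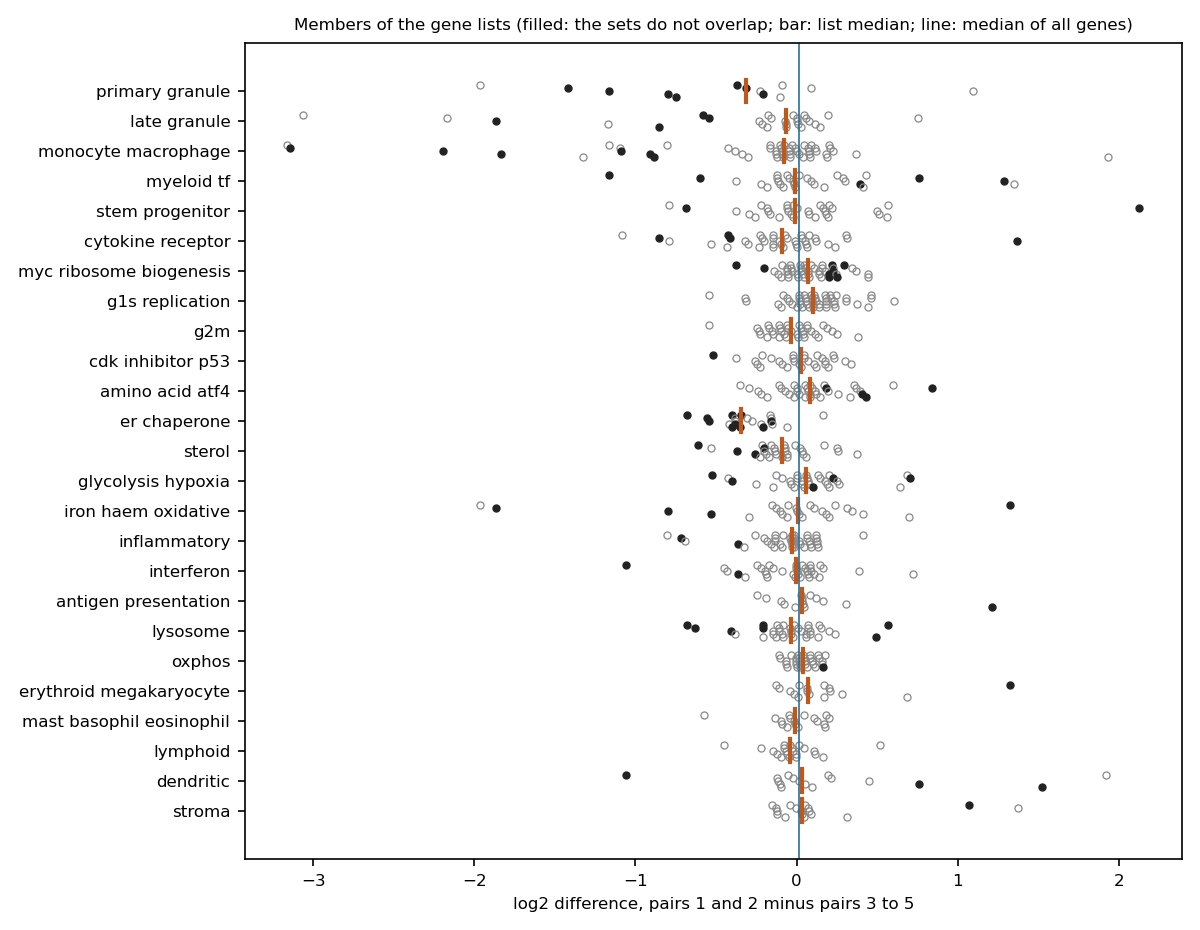
Log2 difference, pairs 1 and 2 minus pairs 3 to 5 (horizontal axis), of the measured members of 25 gene lists; filled points are members whose arrays did not overlap, the short bar is the list median and the vertical line the median of all genes at 0.02. The endoplasmic reticulum list, at a median of -0.35, and the primary granule list, at -0.32, have the lowest medians over all measured members. The G1/S, G2/M, lymphoid, and mast cell, basophil and eosinophil lists have no filled points, near the 2.30% and 2.68% of all genes.

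Most listed markers of other blood and tissue cell types were near background. The mean log2 level of 16 erythroid and megakaryocytic markers was 2.75 to 2.88 in pairs 1 and 2 and 2.54 to 2.69 in pairs 3 to 5, with Hba-a1, Klf1 and Gata1 between 2.27 and 3.52, and only Car2 above a mean of 5. Outside that list, and chosen after its values were seen, the embryonic globin gene Hbb-y had log2 levels of 6.41 and 5.08 in controls 1 and 2 and 5.27 and 4.94 in their shRNA samples. The 6 arrays of pairs 3 to 5 lay between 2.04 and 2.55, near Trpn, and the difference of 3.11 (SE 0.32) was the largest of the 35 genes higher in pairs 1 and 2. For 21 lymphoid markers the ranges were 2.48 to 2.59 and 2.51 to 2.64, and for 17 mast cell, basophil and eosinophil markers 2.80 to 2.97 and 2.75 to 3.02. For 17 stromal, endothelial and epithelial markers they were 3.07 to 3.16 and 2.87 to 3.01, where Thy1 and the dim Pecam1, at 1.38 (SE 0.29), were higher in pairs 1 and 2. The 16 dendritic markers, which include Irf8, Cd24a and Bst2, had means of 4.89 to 4.97 and 4.56 to 4.80, with Siglech at 2.25 to 2.45 throughout. On these bulk samples a change in the share of more mature cells and a change in RNA per cell cannot be told apart.

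The change between control and shRNA within a pair is a measure that the choice of the sets did not use, and its difference between the sets was tested by limma with the pair as a block. Of 18193 genes 0 passed an adjusted p of 0.05 (0%), the lowest adjusted p was 0.773, and 1172 had an unadjusted p under 0.05. The genes with the smallest p were Rsph3a, Gimap9 and Zfp248. Gimap9 gave 62.3 and 70.7 in controls 1 and 2 and 30.4 and 32.4 in their shRNA samples. In pairs 3 to 5 it gave 22.8, 34.1 and 25.9 without and 23.6, 32.5 and 25.5 with the shRNA, so its shRNA change was -1.08 in pairs 1 and 2 and -0.01 in pairs 3 to 5 (limma adjusted p = 0.773). A p that misses the threshold does not show that the sets responded alike. Side by side, the shRNA change in pairs 1 and 2 and in pairs 3 to 5 was 1.13 and 1.04 for Lcn2, -0.48 and -0.36 for Elane, 2.03 and 1.42 for Thbs1, -0.81 and -0.76 for Kit and -0.97 and -1.17 for Meis1. The median change of the G1/S list was -0.32 and -0.35.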

How the data were processed

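The authors' deposited table holds 1 intensity per probe set and array on a linear scale, made with RMA per the submitters' processing notes. The version of RMA and the genome build behind the probes were not given in the sources used here. That RMA output was turned back from its log2 scale was read from the deposited values, which run from 1.30 to 32400. RMA normalizes quantiles and compresses large differences. Labelling used the Affymetrix kit for one cycle of amplification, per the labels' protocols.

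The intensities were log2-transformed with no pseudocount and no filter. Of 45101 probe sets, 64 controls were left out, and 34945 of the rest had 1 symbol, 932 several and 9160 none. Symbols came from the platform annotation, of which 34741 matched RefSeq (GRCm38.p6) by Entrez identifier. The brightest probe set stood for each of 18193 genes. Groups came from the sample titles and the pairing from the labels' treatment protocol. The consensus correlation within pairs, after fitting the sets and the virus, was 0.03.

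Differences between the sets were fitted with limma 3.58.1 (R 4.3.3) with the virus as covariate and have no test. The interaction of virus and set was tested with lmFit and eBayes, with the pair as a fixed block, two-sided, with Benjamini-Hochberg adjustment over all genes. On simulated data with 200 of 18193 genes given an interaction of 2 (log2), that fit recovered 171 (85.5%) and called 4 others. That size is larger than the interactions of Rsph3a, Gimap9 and Zfp248, at 1.22, -1.07 and 1.22. Recovery of interactions smaller than 2 was not measured, so that share does not apply to them. The comparison, the 25 lists (735 of 797 entries measured) and all rules were chosen with earlier results of these data known. Named genes are Meis1, the 15 largest differences in each direction past the 2-fold rule with a mean log2 level of at least 5, up to 4 such members of each list with the largest differences, the 3 smallest interaction p-values, and any other list member as such.

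Promoters were the first listed per gene of a RefSeq table with 32851 entries. Motifs were searched on both strands. Alternatives were quantile normalization, centred medians, the mean of probe sets, brighter genes, a 1.5-fold limit, each virus alone, the 3 prime to 5 prime ratio as covariate, each pair left out, and, for the interaction, no block and trend with robust eBayes.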

Additional observations from a re-analysis of the deposited data

Results flagged for a closer look

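In 6 of 114 groups of 5 arrays examined (gene list means, levels of Meis1 and of the 30 genes with the largest differences, and the 3 prime to 5 prime ratio, each within 1 virus), 1 array lay far from the other 4 by Dixon's ratio of its gap to the whole range, which has a critical value of 0.71. Chance gives about 1 in 20. In all 6 cases the array was one of pair 5. The control array of pair 5 had a mean log2 level of 4.433 for the late granule list, next to 3.831 for the nearest array (ratio 0.762). For the Myc and ribosome biogenesis list it was at 9.858, below 9.948 (ratio 0.752). For the glycolysis and hypoxia list it was at 7.624, below 7.942 (ratio 0.727), and the shRNA array of pair 5 was at 7.658, below 7.927 (ratio 0.792). For the inflammatory list the control array was at 4.026, above 3.904 (ratio 0.796), and for the mast cell, basophil and eosinophil list at 2.753, below 2.958 (ratio 0.762).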

How the results depend on the processing

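With 2-fold separation, 35 genes were higher in pairs 1 and 2 and 49 in pairs 3 to 5. Among genes with a mean log2 level above 5 the counts were 19 and 32, with a 1.5-fold limit 94 and 156, in the control arrays alone 54 and 67, and in the shRNA arrays alone 62 and 92, where 2 arrays face 3. With the mean of probe sets they were 27 and 32. Leaving out 1 pair gave 25 (without pair 5) to 66 (without pair 4) and 44 (without pair 5) to 70 (without pair 1). Quantile normalization gave 41 and 46, and the ratio of 3 prime to 5 prime signal added as covariate, with overlap allowed, 39 and 60. Overlap allowed alone, an alternative added after the data were seen, gave 52 and 68. With the replicate block as a random effect the counts stayed at 35 and 49. They could not change, since each pair holds 1 array of each virus and the rule uses no SE. The interaction called 0 genes in the replicate block fit and 0 with no replicate block (1025 at an unadjusted p under 0.05). It called 0 to 1 when 1 pair was left out, the 1 gene being Speer4cos without pair 4 (limma adjusted p = 0.0491), named after its value was seen. Of 106 named genes, 98 kept their sign under every alternative run. When 1 pair was left out, 24 of these 106 differences became over 1.5 times smaller, 11 of them without pair 5, and 6 changed sign, each at most 0.184 in size with all pairs. Among other list members given a difference above, Ldha (0.146 without pair 5), Mars1 (0.11 without pair 2), Myc (-0.12 without pair 4), Atf4, Myb and Srgn (without pair 2) also became over 1.5 times smaller. Cdkn1a, Cebpd and Il3ra (without pair 5), Csf2rb (without pair 4) and Hoxa9 (without pair 1) changed sign. The number of arrays limits the precision, and levels near those of Trpn cannot be read as expression.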

Other observations

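Of the 10092 probe sets with several or no gene symbols, which the comparison left out, 5 were higher in pairs 1 and 2 and 11 in pairs 3 to 5 by the 2-fold rule. Over 6721 brighter genes, the correlations of the arrays' deviations from their virus group means, across genes, were 0.406 to 0.626 within pairs 1 and 2 (6 array pairs), -0.307 to 0.632 within pairs 3 to 5 (15) and -0.645 to -0.178 between them (24). Genes are not independent replicates and these values carry no test. Mcpt8, a basophil protease gene, gave 214 to 276 in pairs 1 and 2 and 274 to 598 in pairs 3 to 5, a difference of -0.57 (SE 0.15), and 1 other of the 17 markers of its list reached a mean log2 level of 5. That gene, Gata2, a factor of progenitors and mast cells, gave 34.1 to 44.4 in pairs 1 and 2, 36.3 to 79.2 in pairs 3 and 4 and 16.1 and 18.5 in pair 5.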
